A study of Mus musculus with 19 samples.

Results

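The 7 genes described here encode subunits of the GABA-A receptor, the chloride channel that GABA, the main inhibitory transmitter of the brain, opens. They were chosen by name, namely Gabra2, Gabra3, Gabra4, Gabra5, Gabrb1, Gabrb2 and Gabrd, out of 48709 genes counted in each library, and all 7 passed the filter on low counts that left 19286 genes to test. RNA from the CA1 region of the hippocampus of male wild-type C57B/6J mice was sequenced in 19 libraries, and the labels do not say whether each came from a separate animal. Young mice of 3 months (n = 6) and old control mice of 16.5 months (n = 6) were injected on both sides of the dorsal hippocampus with lipid nanoparticles that carried control oligonucleotides. Old anti-miR-mix mice of 16.5 months (n = 7) received the same particles with inhibitors of 3 microRNAs, namely miR-148a-3p, miR-181a-5p and also miR-146a-5p. All 3 groups thus share the surgery and the particle, and no uninjected group is among them. The study trained mice injected in these ways in the water maze, without stating whether the sequenced mice were among them.

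A GABA-A receptor is a ring of subunits built mostly from alpha, beta and gamma or delta subunits, and its make-up decides where it sits and how it behaves. Receptors with α2 or α3 gather at synapses and carry brief inhibitory currents. Receptors with α5, and those that combine α4 with δ, lie largely outside the synapse, where they respond to low ambient GABA and hold a tonic current. In the hippocampus α5 is abundant in CA1 pyramidal cells, while δ is best known from granule cells of the dentate gyrus and from the neighbouring thalamus. The β subunits line the GABA binding site together with α subunits and are needed for assembly.

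Gene-assigned reads numbered 26653511 in the shallowest library and 38908947 in the deepest. Reads of the 7 genes ranged from 507 (Gabrd) to 9782 (Gabrb1) per library, so that counting error was smallest for Gabrb1 and largest for Gabrd. All 6 CA1 pyramidal markers listed, among them Wfs1, Fibcd1, Mpped1, Pou3f1 and Man1a, were detected in every library and summed to between 774 and 1125 CPM (reads scaled to the size of the library). Dentate granule markers summed to between 122 and 232 CPM and thalamus markers to between 79.7 and 139 CPM. Dock10 (66.4 to 105 CPM) gave the most of the first list and Slc17a6 (42.2 to 94.2 CPM) the most of the second. Gbx2 of the thalamus list was at 0 in 10 of 19 libraries. The sums alone do not show how much tissue of either neighbour was present. Libraries old control 5 and old control 6 stood closer to each other than any other pair of one group, with a chi-square per gene of 1.82 against 4.55 for the next pair, and whether they came from separate animals is not stated. Some results are therefore also given with these libraries summed as 1, while the correlations keep them separate. The deposited log2 table carries a correction by a number from 1 to 4 per library, called the processing group here, whose origin is not described. In bulk tissue, fewer cells of a type and less RNA per cell cannot be told apart.

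The treatment was aimed at microRNAs, so the sequences come first. The mature microRNAs are shown with the seed, bases 2 to 8, in capitals, as RefSeq gives them. The 3 seeds differ from each other.
miR-146a-5p: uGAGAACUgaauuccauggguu
miR-148a-3p: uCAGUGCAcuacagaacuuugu
miR-181a-5p: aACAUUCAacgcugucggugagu
The study's inhibitors are complementary to the microRNAs, and the capitals mark the bases that pair with the seed. The first covers 7 seed bases and the others 6.
inhibitor of miR-146a-5p: acccatggaattcAGTTCTC
inhibitor of miR-148a-3p: caaagttctgtagTGCACT
inhibitor of miR-181a-5p: actcaccgacagcgtTGAATG
The control oligonucleotide listed for the inhibitors is shown for comparison.
negative control: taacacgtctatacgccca

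Matches to the seeds (the 7 bases that pair with microRNA bases 2 to 8) were searched in the longest annotated 3′ untranslated region of each gene. Gabrb1 held 6 matches, 2 for each microRNA, Gabra2 held 1 for miR-181a-5p, and Gabra3, Gabra4, Gabra5, Gabrb2 and Gabrd held 0. These regions differ widely in length, from 421 bases in Gabrd to 12228 in Gabrb1. At the density of matches over all 21027 genes with such a region, a stretch as long as that of Gabrb1 would hold 1.79 matches for miR-181a-5p, 1.06 matches for miR-146a-5p and, for the seed of miR-148a-3p, 1.23 matches. Over all those genes, 16.4%, 11.1% and 12.7% held at least 1 match for these microRNAs in the same order. The matches are printed on the transcript strand (GRCm38) with the matching bases in capitals, because Gabrb1 and Gabra2 are the members whose response to the inhibitors can be read beside a match.
Gabrb1, miR-146a-5p match at chr5:72143274-72143296: atgtatagacagAGTTCTCtaaa
Gabrb1, miR-146a-5p match at chr5:72143436-72143458: ctgatgacttcaAGTTCTCtttc
Gabrb1, miR-148a-3p match at chr5:72137176-72137198: ttgctatctaccTGCACTGtgct
Gabrb1, miR-148a-3p match at chr5:72137875-72137897: tgggcagttatcTGCACTGccaa
Gabra2, miR-181a-5p match at chr5:70959370-70959392: tgctctccattgTGAATGTtgcc
Gabrb1, miR-181a-5p match at chr5:72138673-72138695: tccttaaataagTGAATGTggct
Gabrb1, miR-181a-5p match at chr5:72146441-72146463: ttaaaagtctttTGAATGTatgt
A match is a description of the letters and was not tested as a binding site in these libraries. The old anti-miR-mix level of Gabrb1 was lower than that of old control by 0.11 on the log2 scale, and that of Gabra2 by 0.15, neither past the threshold, as detailed with the treatment comparison.

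Several members share neighbourhoods. Gabra2 (chr5:70957597-71095849, minus strand), Gabra4 (chr5:71569749-71658308, minus) and Gabrb1 (chr5:71658113-72149037, plus) lie in one cluster, in which Gabra4 and Gabrb1 start back to back and share 46 exonic bases on opposite strands. Gabra5 (chr7:57407672-57510059, minus) shares 148 exonic bases with the antisense gene Gm9962. Gabrb2 (chr11:42419757-42629028, plus), Gabra3 (chrX:72432681-72656848, minus) and Gabrd (chr4:155384980-155398112, minus) share no exonic base with another annotated gene. The library kit does not mark strand, so reads from shared bases cannot be assigned to one partner. Of the stretches of 50 bases, the read length, that make up each gene's transcripts, 3.59% recurred elsewhere for Gabra5 (in Gm9962), 0.548% for Gabra2, 0.205% for Gabra3 and 0 for the other 4 genes.

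Gabra2 and Gabra5 had the most similar values over the 19 libraries of any pair of members, and the 250 bases before their annotated starts are therefore shown (RefSeq, GRCm38.p6). 4 motifs were searched on both strands, namely the cAMP response element TGACGTCA, the EGR site GCGTGGGCG, the GC box GGGCGG and the TATA box TATAAA, of which the EGR site and the GC box can overlap. Of 32851 promoter windows of this length, 1.55%, 0.536%, 32.7% and 12.4% held them. Capitals mark a motif found.
Gabra2, chr5:71095850-71096099, minus strand: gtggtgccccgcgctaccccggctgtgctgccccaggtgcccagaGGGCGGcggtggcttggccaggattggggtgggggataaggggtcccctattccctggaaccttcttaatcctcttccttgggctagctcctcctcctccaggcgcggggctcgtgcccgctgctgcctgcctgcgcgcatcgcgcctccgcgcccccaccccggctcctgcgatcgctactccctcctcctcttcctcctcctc
Gabra5, chr7:57510060-57510309, minus strand: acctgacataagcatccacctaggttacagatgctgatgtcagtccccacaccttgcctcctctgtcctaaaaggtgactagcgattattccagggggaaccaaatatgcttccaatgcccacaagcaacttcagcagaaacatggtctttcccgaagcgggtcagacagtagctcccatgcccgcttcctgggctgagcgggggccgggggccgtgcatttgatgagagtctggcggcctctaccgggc
The Gabra2 window held 1 GC box, 18 CG pairs and 70.0% G or C, while the Gabra5 window held none of the 4 motifs, 9 CG pairs and 56.4% G or C. The pair thus shared no motif among those searched in these windows, which says nothing about other motifs or regions.

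Levels were compared between genes as CPM per kilobase of exon, because longer transcripts collect more reads. Gabra5 was the highest member with 51.2 ± 7.84 CPM per kilobase (mean ± SD, n = 19), followed by Gabra3 with 38.8 ± 3.82 and Gabrb2 with 24.2 ± 1.97. Gabra4 (17.8 ± 1.24) and Gabrb1 (17.7 ± 1.56) did not differ beyond their spread, since Gabra4 was above Gabrb1 in 10 of 19 libraries. Gabra2 followed with 12.9 ± 1.54, and Gabrd was lowest with 7.84 ± 1.29. Gabra5 exceeded Gabra3 in 18 of 19 libraries, and each of the other neighbours in this order, apart from Gabra4 and Gabrb1, kept its order in all 19. Of the 13838 exonic bases over which Gabrb1 was scaled, 12228 are its longest 3′ untranslated region.

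**Figure D1:**
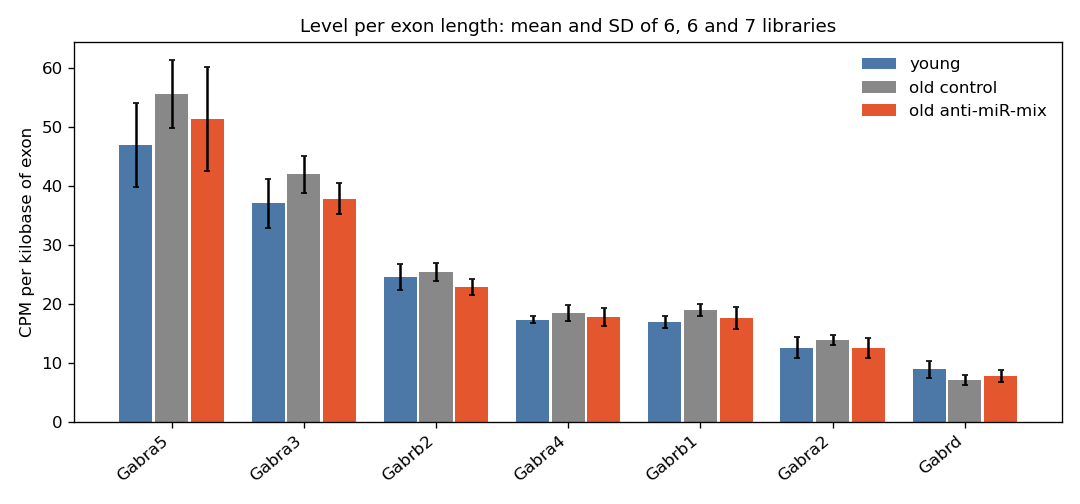
Level of each subunit gene as CPM per kilobase of exon (vertical axis) in young (n = 6), old control (n = 6) and old anti-miR-mix (n = 7) libraries. Bars are means from 0 and error bars are SD. The 7 members are ordered from Gabra5 at 51.2 down to Gabrd at 7.84 CPM per kilobase over all libraries.

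The comparison of old control with young mice asks what changes with age. None of the 7 genes passed the threshold (adjusted p under 0.05, edgeR's quasi-likelihood test over all tested genes), against a background of 2.67% of all genes called (1.32% higher and 1.34% lower). DESeq2 called 1 member, Gabrd, as lower (background 4.74%), and limma on the deposited log2 values also called Gabrd alone (background 3.47%). At an unadjusted p under 0.05, 4 of 7 members and 18.1% of all genes stood in edgeR. With old control 5 and 6 summed, 3 of 7 members and 3192 of 19512 genes did. These p-values measure only the spread between libraries, which may be technical. The fitted difference was positive for 6 members and for 52.2% of all genes, and it was negative for Gabrd. The median over the members was 0.15 on the log2 scale, against 0.0064 over all genes.

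Gabrd, the δ subunit of extrasynaptic receptors, had the largest difference with age among the members. Its level in young libraries lay between 4.39 and 5.04 log2 CPM with a median of 4.60, and in old control libraries between 4.21 and 4.63 with a median of 4.25. The groups overlapped: 4 of 6 old control libraries were below every young library, while old control 1, at 4.63, was above the young median. Old control 5 and 6, whose separate origin is not stated, were both among these 4. The fitted difference was -0.34 ± 0.10 (log2, ± SE), or 0.790 times the young level, with an adjusted p of 0.0742 in edgeR. The adjusted p was 0.0280 in DESeq2 and 0.0370 in limma on the deposited values, from which a slope on the processing group had already been removed. With the processing group as a linear term in edgeR the difference was -0.38 (adjusted p = 0.0467). With the processing group as a factor the difference was -0.31 (adjusted p = 0.0799 in edgeR), and with old control 5 and 6 summed it was -0.32 (adjusted p = 0.139). The call therefore depended on the method and on how the processing group was handled. The direction was the same in all 30 alternatives, with values from -0.41 to -0.24 (the last without young 4). These refit mostly the same libraries and are not independent.

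Gabra5, the α subunit of most extrasynaptic receptors on CA1 pyramidal cells, was fitted 0.24 ± 0.11 higher in old control than in young mice (log2, ± SE, edgeR adjusted p = 0.247). Young libraries lay between 6.92 and 7.44 log2 CPM (median 7.05) and old control libraries between 7.16 and 7.61 (median 7.35). The old control libraries were all above the young median, yet 5 of 6 lay within the young range. Gabra4, which pairs with δ in extrasynaptic receptors, lay between 6.64 and 6.77 log2 CPM in young mice (median 6.72) and between 6.65 and 6.94 in old control mice (median 6.82). The fitted difference of Gabra4 was 0.09 ± 0.05 (edgeR adjusted p = 0.394). The young libraries of Gabra4 were the most uniform of any member and group, with an SD of 0.047 log2 CPM.

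Among the synaptic subunits, Gabra3 lay between 6.89 and 7.39 log2 CPM in young mice (median 7.18) and between 7.22 and 7.49 in old control mice (median 7.36). Of 6 old control libraries, 3 were above all young libraries, and the fitted difference was 0.18 ± 0.067 (log2, edgeR adjusted p = 0.156). Old control 5 and 6 were among these 3, and with both summed the difference was 0.16 (edgeR adjusted p = 0.259). The lowest value belonged to young 4, the library that also had the highest Gabrd value and the highest oligodendrocyte marker sum, 11237 CPM. Gabra2, which is found at synapses on the axon initial segment, lay between 6.40 and 6.92 log2 CPM in young mice (median 6.55) and between 6.62 and 6.86 in old control mice (median 6.72). Its fitted difference was 0.15 ± 0.086 (edgeR adjusted p = 0.390), and young 2 was above every old control library.

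Of the β subunits, Gabrb1 lay between 7.72 and 7.98 log2 CPM in young mice (median 7.87) and between 7.91 and 8.15 in old control mice (median 8.03). The separation was the widest among the members that were higher with age, since 5 of 6 old control libraries exceeded every young library. Old control 5 and 6 were both among these 5. The fitted difference of Gabrb1 was 0.17 ± 0.061 (log2, edgeR adjusted p = 0.150), and adjusted p values over its 30 alternatives ran from 0.0513 to 0.299. Gabrb2, the other β subunit measured here, lay between 7.10 and 7.44 log2 CPM in young mice (median 7.30) and between 7.25 and 7.50 in old control mice (median 7.31). Its fitted difference was 0.05 ± 0.056 (edgeR adjusted p = 0.692), with an interval (95%) from -0.066 to 0.17.

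**Figure D2:**
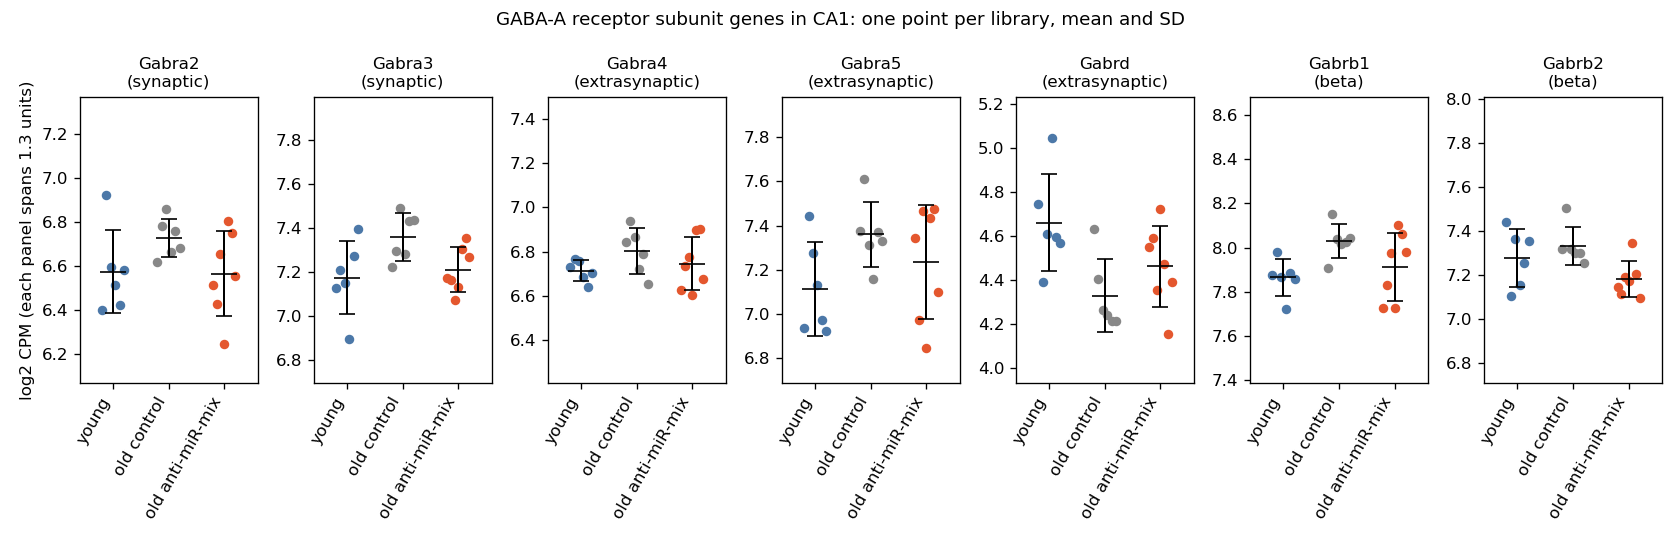
Log2 CPM (vertical axis, every panel spanning the same number of units) of the 7 members in each of 19 libraries, with the mean and SD of each group. Old control points of Gabrd sit low, with 4 of 6 below every young point, and old control points of Gabrb1 sit high, with 5 of 6 above every young point, while every pair of groups overlaps. Both counts include old control 5 and 6 as separate libraries.

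The comparison of old anti-miR-mix with old control mice asks what the inhibitors change in the aged CA1 region. None of the 7 members passed the threshold in edgeR, where 0.669% of all genes did, and 0 passed in DESeq2 (background 1.39%) or in limma (0.768%). At an unadjusted p under 0.05, 2 of 7 members (Gabrb2 and Gabra3) and 10.5% of all genes stood in edgeR. With old control 5 and 6 summed, 1 of 7 members (Gabrb2) and 1665 of 19512 genes did. The background itself moved with the fit: 129 genes were called in all, 23 without old control 5, 24 without old control 2, 247 without old anti-miR-mix 1, 33 with old control 5 and 6 summed and 9 with the processing group as a factor. The fitted difference was positive for 1 of 7 members, Gabrd, and for 50.2% of all genes. The median over the members was -0.11 on the log2 scale, against 0.0004 over all genes.

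Gabrb2 had the lowest unadjusted p. Old anti-miR-mix libraries lay between 7.09 and 7.35 log2 CPM with a median of 7.17, and 6 of 7 were below every old control library, whose lowest value was 7.25. Only old anti-miR-mix 5, at 7.35, lay within the old control range. The fitted difference was -0.15 ± 0.054 (log2, ± SE), or 0.901 times the old control level, with an adjusted p of 0.274 in edgeR. With the processing group as a factor it was also -0.15 (edgeR adjusted p = 0.582).

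Gabra3 lay between 7.07 and 7.35 log2 CPM in old anti-miR-mix mice (median 7.17), and 4 of 7 libraries were below every old control library. The fitted difference of Gabra3 was -0.15 ± 0.065 (log2, edgeR adjusted p = 0.410), and it was -0.09 with the processing group as a factor (edgeR adjusted p = 0.773). Gabra2 lay between 6.25 and 6.80 log2 CPM (median 6.55) in these mice, with a fitted difference of -0.15 ± 0.083 (edgeR adjusted p = 0.545). Its lowest values were those of old anti-miR-mix 4 and 2, which were also the lowest treated libraries for Gabra5. Gabrb1, the member with most seed matches, lay between 7.72 and 8.10 log2 CPM (median 7.98), and 3 of 7 treated libraries were below every old control library. The fitted difference of Gabrb1 was -0.11 ± 0.059 (log2, edgeR adjusted p = 0.531), with an interval (95%) from -0.24 to 0.011.

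Among the extrasynaptic subunits, Gabra5 spread most in the treated mice, from 6.85 to 7.48 log2 CPM with a median of 7.34 and an SD of 0.26. 4 libraries stood between 7.34 and 7.48 and the others between 6.85 and 7.10. The fitted difference of Gabra5 from old control was -0.11 ± 0.11 (log2, edgeR adjusted p = 0.772). Gabra4 lay between 6.60 and 6.90 log2 CPM (median 6.74), with a fitted difference of -0.05 ± 0.052 (edgeR adjusted p = 0.778). Gabrd lay between 4.16 and 4.72 log2 CPM (median 4.47), and 6 of 7 treated libraries were above the old control median. The fitted difference of Gabrd was 0.13 ± 0.098 (edgeR adjusted p = 0.685), with an interval (95%) from -0.071 to 0.34.

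The third comparison sets old anti-miR-mix beside young mice. Again 0 of 7 members passed in edgeR, DESeq2 or limma, where 6.2% of all genes did in edgeR (4.57% higher and 1.63% lower) and 7.89% in DESeq2 and 6.78% in limma. At an unadjusted p under 0.05, 1 of 7 members (Gabrd) and 19.6% of all genes stood in edgeR. With old control 5 and 6 summed, 0 of 7 members and 3725 of 19512 genes did. Gabrd was fitted 0.21 lower in old anti-miR-mix than in young mice (-0.21 ± 0.097, log2, edgeR adjusted p = 0.245), and 2 of 7 treated libraries were below all young libraries. Gabra5 had a difference of 0.13 ± 0.11 (edgeR adjusted p = 0.562) and Gabrb2 one of -0.10 ± 0.054 (edgeR adjusted p = 0.313). The fitted differences of Gabra2, Gabra3, Gabra4 and Gabrb1 lay between -0.0074 and 0.05, within 1 SE of zero for each. The 3 comparisons share libraries in pairs, so that a high or low old control value enters both the age and the treatment difference, with opposite signs.

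**Figure D3:**
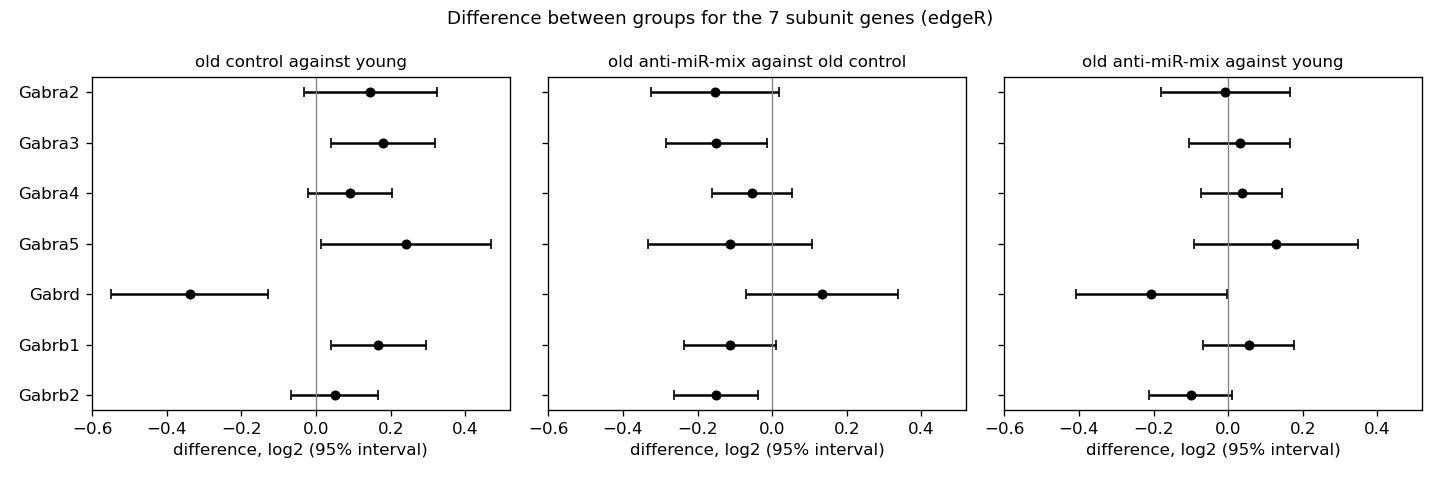
Fitted difference between groups (horizontal axis, log2) for each member in the 3 comparisons, as points with 95% intervals from edgeR before adjustment for multiple genes. With age, Gabrd stands at -0.34 and the other members between 0.05 and 0.24; under treatment Gabrd stands at 0.13 and the others between -0.15 and -0.05.

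Synaptic and extrasynaptic members were set against each other by the mean log2 CPM of Gabra4, Gabra5 and Gabrd minus that of Gabra2 and Gabra3 in each library. This value depends on gene length and is read only between groups, as a description with no test. It lay between -0.92 and -0.42 in young libraries (median -0.72), between -1.03 and -0.64 in old control libraries (median -0.95) and between -0.87 and -0.63 in old anti-miR-mix libraries (median -0.70). The means were -0.71 ± 0.18 (SD, n = 6), -0.88 ± 0.16 (SD, n = 6) and -0.74 ± 0.097 (SD, n = 7), and each pair of groups overlapped. The old control mean was 0.17 below the young mean (difference -0.17), close to the pooled SD within groups of 0.15, and the treated mean was 0.14 above the old control mean. The extrasynaptic genes did not move as one. With Gabrd alone on the extrasynaptic side the age difference was -0.50, with Gabra4 alone -0.081 and with Gabra5 alone 0.078. Under treatment the same values were 0.29 for Gabrd, 0.10 for Gabra4 and 0.030 for Gabra5.

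**Figure D4:**
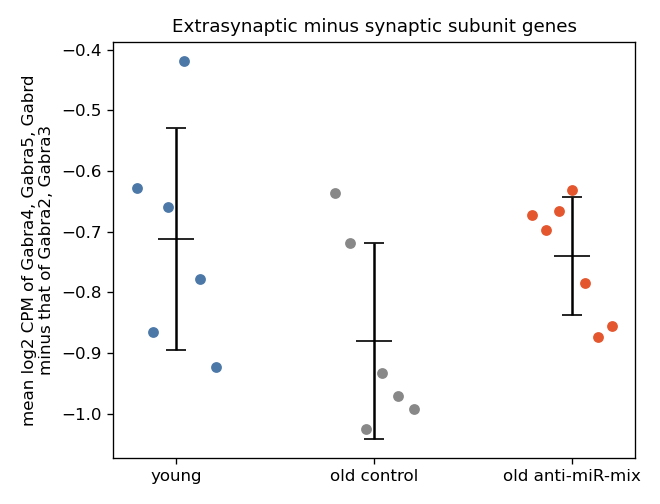
Mean log2 CPM of Gabra4, Gabra5 and Gabrd minus that of Gabra2 and Gabra3 (vertical axis) in each library, by group, with mean and SD. The old control mean of -0.88 lies below the young mean of -0.71 and the old anti-miR-mix mean of -0.74, with overlap between all groups.

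The members varied together in a set pattern over the 19 libraries, given here as a description. Of 21 pairs, 15 had a positive Pearson correlation of log2 CPM and 6 a negative one, and the 6 were the pairs of Gabrd with each other member, from -0.78 with Gabrb1 to -0.044 with Gabrb2. The highest was 0.81 between Gabra2 and Gabra5, and it was 0.81 as well after the group means were removed. Gabra2 and Gabrb1 followed at 0.78 (0.74 within groups) and Gabra4 and Gabrb1, the back-to-back pair, at 0.72 (0.67 within groups). Gabra3 and Gabra5 had 0.23 over all libraries and -0.0050 within groups. All these points share library, depth and dissection.

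For each member, the 2 genes of the 19286 tested with the most similar values were listed by the same correlation over 19 libraries. Gabra5 was closest to Gria1 (0.97), an AMPA-type glutamate receptor subunit, and Arl15 (0.97). Gabrb1 was closest to Akap11 (0.94), a kinase anchor, and Nlgn1 (0.93), the neuroligin of excitatory synapses. Gabra3 was closest to Pgrmc1 (0.93) and to Plxnc1 (0.92), a semaphorin receptor. Gabra2 was closest to Ppfia2 (0.91), a liprin of the presynaptic zone, and Jade3 (0.90). Gabra4 was closest to Cacna2d1 (0.89), an auxiliary calcium channel subunit, and Susd1 (0.86), and Gabrb2 to Cntn1 (0.86) and Cntnap5b (0.85), both of the contactin system of cell adhesion. Gabrd was closest to Abcc8 (0.91), the sulfonylurea receptor of potassium channels, and Ppp4r1 (0.87).

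The markers of hippocampal fields, thalamus and glia moved with several members across libraries. Of 91 correlations between the log2 CPM of a member and the log2 summed CPM of a marker list (7 members, 13 lists), 12 passed an adjusted p under 0.05 for both Pearson's r and Spearman's rho (100000 permutations, two-sided, Benjamini-Hochberg over 91). Gabra5 correlated positively with the CA1 pyramidal sum (r = 0.85, raw p = 2e-05, adjusted p = 0.00091 by permutation; rho = 0.84, raw p = 4e-05, adjusted p = 0.00114) and kept r = 0.80 without the 2 libraries farthest from the median of that sum. Within experimental groups r was 0.90 and within processing groups 0.87. Gabra5 correlated negatively with the thalamus sum (r = -0.86, raw p = 1e-05, the smallest the permutations can give, adjusted p = 0.00091; rho = -0.89, raw p = 1e-05, adjusted p = 0.000455), and r was -0.87 without the 2 farthest libraries. Within experimental groups it was -0.83 and within processing groups -0.91.

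Gabrd ran the other way. It correlated positively with the thalamus sum (r = 0.74, raw p = 0.00032, adjusted p = 0.00364 by permutation; rho = 0.74, raw p = 0.00039, adjusted p = 0.00507). The value was 0.73 without the 2 farthest libraries, 0.63 within experimental groups and 0.83 within processing groups. Its correlation with the dentate granule sum, the markers of the cells in which δ is best known, was 0.37 (raw permutation p = 0.117, adjusted p = 0.296; rho = 0.27, raw p = 0.26, adjusted p = 0.537). Its correlation with the oligodendrocyte sum passed for r (0.68, raw permutation p = 0.0011, adjusted p = 0.01) and not for rho (0.51, raw p = 0.0264, adjusted p = 0.134), with 0.49 without the 2 farthest libraries, 0.54 within experimental groups and 0.72 within processing groups. With the CA3 pyramidal sum r was 0.56 (raw permutation p = 0.012, adjusted p = 0.0641; rho = 0.49, raw p = 0.0353, adjusted p = 0.141), 0.61 without the 2 farthest libraries, 0.28 within experimental groups and 0.91 within processing groups. Gabra3 correlated negatively with the oligodendrocyte sum (r = -0.75, raw p = 0.00027, adjusted p = 0.00351 by permutation; rho = -0.70, raw p = 0.00117, adjusted p = 0.00968), with -0.70 without the 2 farthest libraries, -0.62 within experimental groups and -0.77 within processing groups. Gabrb2 passed with 0 of 13 lists.

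The other 8 relations that passed concerned Gabra2, Gabra4, Gabra5 and Gabrb1. Gabrb1, the β subunit with the widest separation with age, correlated negatively with the thalamus (r = -0.78, rho = -0.84), oligodendrocyte (r = -0.71, rho = -0.69) and CA3 pyramidal sums (r = -0.63, rho = -0.70). Gabra2 correlated negatively with the thalamus sum (r = -0.76, rho = -0.76), and Gabra4 with the CA3 pyramidal (r = -0.69, rho = -0.71) and thalamus sums (r = -0.62, rho = -0.62). Gabra5 correlated negatively with the CA3 pyramidal sum (r = -0.81, rho = -0.80) and positively with the CA2 sum (r = 0.80, rho = 0.82). Over these 8, adjusted permutation p ran from 0.00146 to 0.0356 for r (raw 7e-05 to 0.00548) and from 0.000455 to 0.0465 for rho (raw 1e-05 to 0.00613). The 7 negative r lay between -0.79 and -0.51 without the 2 farthest libraries and also within experimental groups, and between -0.82 and -0.65 within processing groups. The CA2 relation had 0.77, 0.88 and 0.81 in the same order. In all, 5 of 7 members passed with the thalamus sum, and 0 of 7 with the microglia, astrocyte or dentate granule sums.

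The levels of these markers in the groups compared are given beside the members. The thalamus sum had a median of 122 CPM in young (range 95.4 to 126), 96.3 in old control (90.6 to 107) and 105 CPM in old anti-miR-mix libraries (79.7 to 139), and 0 of 7 tested thalamus markers passed with age in edgeR, 4 at an unadjusted p under 0.05. The oligodendrocyte sum had medians of 8173, 6839 and 8310 CPM, and 4 of 6 of its markers, among them Mag, Cnp and Mog, passed as lower in old control than in young mice. The CA1 pyramidal sum had medians of 974, 1098 and 966 CPM, with 0 of 6 markers past the threshold in that comparison. The CA3 pyramidal sum had medians of 99.4 (range 94.5 to 103), 89.6 (86.1 to 95.5) and 90.4 CPM (85.3 to 99.7). With age, 1 of 7 CA3 markers passed as lower. The CA2 sum had medians of 81.7, 82.5 and 89.2 CPM, with 0 of 4 markers past the threshold with age. Dentate granule sums had medians of 153, 154 and 159 CPM. Dock10 gave between 66.4 and 105 CPM, the most of any gene on that list, and C1ql2 between 3.46 and 15.8 CPM. Gbx2, the defining transcription factor of thalamic precursors, was at or near 0 in every library (at 0 in 10 of 19), while Slc17a6, a glutamate transporter of thalamus and other regions, gave between 42.2 and 94.2 CPM, the most of any gene on that list. Microglia markers summed to medians of 293 CPM in young, 329 in old control and 420 CPM in old anti-miR-mix libraries, and 1, 2 and 5 of 6 passed as higher with age, under treatment and between old anti-miR-mix and young. Of 6 astrocyte markers, 2 passed as higher in old anti-miR-mix than in young mice. The part of these markers in the differences of the members was not tested.

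**Figure D5:**
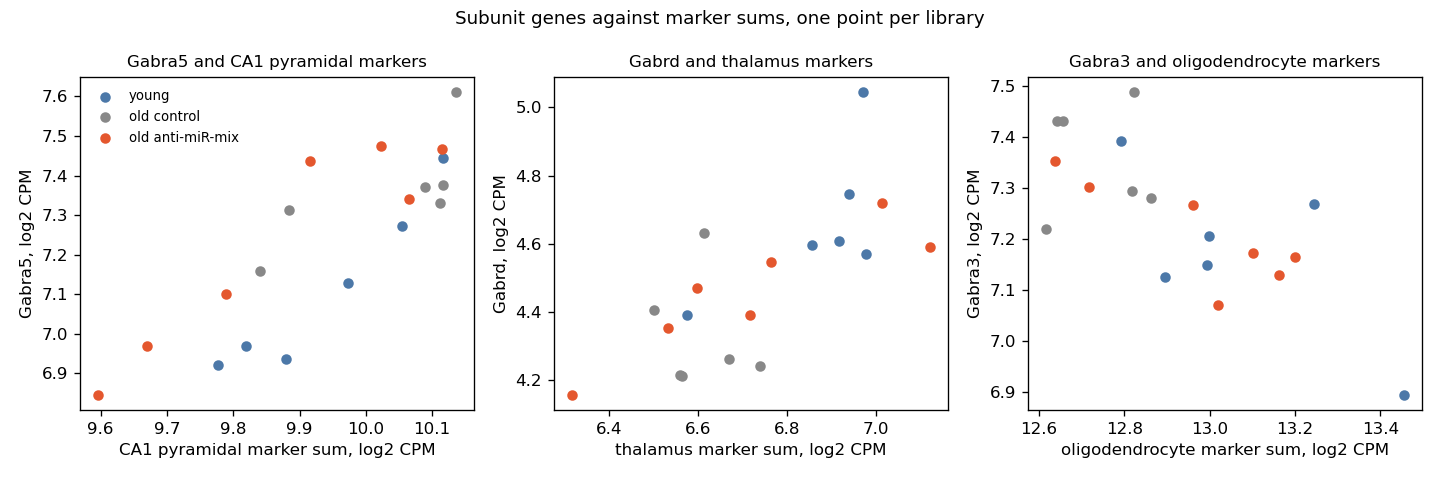
Log2 CPM of a member (vertical axis) against the log2 summed CPM of a marker list (horizontal axis), one point per library, coloured by group: Gabra5 with CA1 pyramidal (r = 0.85), Gabrd with thalamus (r = 0.74) and Gabra3 with oligodendrocyte markers (r = -0.75). Old anti-miR-mix points spread along each slope. On the thalamus and oligodendrocyte axes most young points lie to the right of every old control point, and young 4 stands at the right end of the oligodendrocyte panel.

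The rest of the GABA system was surveyed through 6 lists with 59 genes, of which 54 were tested. The fitted difference was positive for 40 and negative for 14 of these with age, and positive for 14 and negative for 40 under treatment. With age, 1 was higher and 1 lower past the threshold, or 3.70% of the 54 against the 2.67% background. Hap1, a trafficking adaptor that helps return GABA-A receptors to the membrane, rose by 0.40 ± 0.10 (log2, edgeR adjusted p = 0.0407), and Slc12a2, the chloride importer NKCC1, fell by 0.25 (-0.25 ± 0.064, edgeR adjusted p = 0.0368). With old control 5 and 6 summed, 0 of the 54 passed in edgeR (12 at an unadjusted p under 0.05), and with the processing group as a factor Hap1 passed and Slc12a2 did not. Under treatment 0 of 54 passed in edgeR, DESeq2 or limma. At an unadjusted p under 0.05 in edgeR stood 11 of 54 genes, a larger share than the 2026 of 19286 genes (10.5%) in all. With the processing group as a factor, 2 of 54 and 1293 of 19286 genes did. Between old anti-miR-mix and young mice, 2 of 54 passed, or 3.70% against the 6.2% background. Dbi, the source of the endozepines that act at the benzodiazepine site, was higher by 0.27 ± 0.067 (edgeR adjusted p = 0.0160). Gphn, gephyrin, the scaffold of inhibitory synapses, was lower (-0.11 ± 0.031, edgeR adjusted p = 0.0406).

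Of the 12 other GABA-A subunit genes, 8 were tested and 0 passed in any comparison, with 0, 3 and 2 at an unadjusted p under 0.05 for age, treatment and old anti-miR-mix against young. All 8 had a positive fitted difference with age, and 7 had a negative one under treatment, so these directions were not particular to the 7 members. Gabra6, Gabrp, Gabrr1 and Gabrr3 were too low to test. Old control 2 had the highest value of Gabra4, Gabra5, Gabrb1 and Gabrb2 among the old control libraries. The GABA-producing enzyme genes, vesicular and membrane GABA transporters gave 0 calls of 9 genes in each comparison, and the GABA-B receptor list 0 of 8 (1 to 2 of each at an unadjusted p under 0.05 with age, 1 to 2 under treatment and 0 between old anti-miR-mix and young).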

How the data were processed

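CA1 RNA was sequenced in 19 libraries as single-end reads of 50 bases from poly(A) RNA with a kit that does not mark strand. Per the submitters' notes, the authors used FastQC 0.11.5, STAR 2.5.2b, Subread 1.5.1 and featureCounts with mm10, and deposited raw counts per gene for each library; their strand and multiple-mapping settings are not given in the sources used here. They also deposited log2 values for 18761 genes, which equal log2(CPM + 1) minus a slope per gene times a number from 1 to 4 per library (the processing group). Identifiers were matched to GENCODE M21 symbols (48349 of 48709).

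From the counts, genes reaching 5 reads in 50% or more of the libraries were retained, scaled by TMM and tested in 1 fit over the 3 groups with edgeR 4.0.16 (quasi-likelihood, Benjamini-Hochberg adjustment over 19286 genes, threshold 0.05; R 4.3.3). Log2 CPM used a prior count of 2. Alternatives used DESeq2 1.42.0, limma 3.58.1 on the deposited log2 values, other scalings and filters, the processing group, the replicate number and each library left out. Treating the processing group as a factor together with old control 5 and 6 summed was added after seeing the data. The test was checked on simulated counts for the age comparison, with changes placed in 100 genes per size, drawn from genes above a low mean level. It recovered 90% of changes of 0.5 and 100% of changes of 1 (log2), and made 6 false calls over 19286 tested genes. The simulated libraries carried no processing group and no pair as close as old control 5 and 6. Changes under 0.5 were not simulated, and the fitted differences of all members were under 0.5, so the check does not cover their size. Some genes and loci are not reported here. Named genes were the 7 members, the genes of 6 GABA lists past the threshold (at most 10 a comparison) and the 2 most similar genes per member; markers, untested subunit genes and an overlapping gene were also named, chosen after their values were seen. The members and lists were chosen with earlier results of these data known.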

Additional observations from a re-analysis of the deposited data

Results flagged for a closer look

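Of 63 sets of values examined (a gene or marker sum in 1 group), 4 held a library far from the others of its group by Dixon's test, and chance gives about 1 in 20. Gabra2 in young 2 was 6.92 log2 CPM, the highest young value, and the thalamus marker sum of the same library was 95.4 CPM, the lowest young value. Old control 2 stood above the other old control libraries for Gabrb2 (7.50 log2 CPM). The choroid plexus marker sum in old anti-miR-mix 2 was 90.6 CPM.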

How the results depend on the processing

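With age, the count of members past the threshold was 0 in edgeR and became 1 (Gabrd, lower) in DESeq2, in limma on the deposited log2 values, with the processing group as a linear term and with the replicate number as a block; it ran from 0 to 1 when each library was left out, being 1 without young 2 (Gabrd adjusted p = 0.0412 in edgeR) and without old control 1 (0.0393). Without young 4, the library with the highest Gabrd value, Gabrd was -0.24 (edgeR adjusted p = 0.209), the weakest of its 30 alternatives with age. Gabrd was -0.34 on the log2 scale (adjusted p = 0.0423) with the replicate block, under which Gphn was not called between old anti-miR-mix and young and Dbi was. Whether the numbers pair the animals is not stated. Of 18 pairs of same-numbered libraries, 6 had a correlation of deviations over 0.1, in a range from -0.17 to 0.21. Pairs of different numbers were not compared, so these values cannot decide it. Replicate 1 lay in processing group 1 and replicate 6 in processing group 4 in all 3 groups, while processing group 3 held 0 old control libraries. The count was 0 in every alternative for the treatment and for old anti-miR-mix against young. Over 21 single-gene results, 617 alternative values kept direction and side of the threshold, 6 passed it and 7 changed sign. The alternatives share most libraries, so these values are not independent. The sign changes concerned small differences. Between old anti-miR-mix and young, Gabra2 was 0.0108 with upper quartile scaling and 0.0004 in limma. Leaving out each library in turn gave -0.0461 to 0.0767 for Gabra2 (highest without young 2) and -0.0178 (without young 4) to 0.0749 for Gabra3. The cause was not tested. Gabrd, with 507 reads in its shallowest library, has the least depth among the members.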
